A study of Sus scrofa domesticus and Sus scrofa with 18 samples.

Results

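Spleens of young adult and mature pigs were compared through 6 RNA libraries, 3 from animals 180 days old (A180d) and 3 from animals 2 years old (A2Y), out of the 18 libraries of a series on spleen development. All 6 pigs were healthy females of the Rongchang breed, a Chinese domestic pig, and each library came from the frozen spleen of 1 animal. The other 12 libraries came from 3 younger stages of Rongchang pigs and from 2-year-old Wild Boars (WB). The younger pigs were fetal, 55 days before birth (E55d), newborn (B0d), or weaned, 30 days after weaning (W30d). These 12 libraries entered the comparison through the shared estimate of spread, the filter on low features, the level classes and the scaling factors. Both a table of 12913 protein-coding genes and a table of 15040 long non-coding RNAs (lncRNAs) were used, in log2(FPKM+1), where FPKM is the number of fragments scaled to the length of the transcript and to the mapped reads of the library. The comparison addressed how the spleen transcriptome differs between the last 2 stages of the developmental series.

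The spleen filters blood in its red pulp, where macrophages clear old erythrocytes and recycle their iron, and it mounts immune responses in its white pulp, where B and T lymphocytes are gathered around small arteries. A capsule and trabeculae rich in smooth muscle and matrix hold the organ together. lncRNAs are transcripts without an apparent protein product, many of which stay in the nucleus and are present at low levels.

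Markers of spleen cells were present in all 6 libraries. The summed FPKM of 7 measured B cell markers lay between 169.8 and 190.5 at A180d and between 140.6 and 197.2 at A2Y, and that of 11 macrophage markers lay between 2093 and 2341 and between 2120 and 2374. TLX1, a transcription factor needed to form the spleen, had a mean FPKM of 5.77 at A180d and 8.53 at A2Y. The 2 measured liver markers summed to between 31.9 and 68.0 at A180d and between 40.9 and 53.2 at A2Y, and 0 of 15 pancreas markers had a symbol in the table, so that tissue could not be checked. No measured marker of the cell type lists was at 0 in any of the 6 libraries, and no identifier matched the symbol CD163, a defining marker of red pulp macrophages. According to the study's list of samples, every A2Y library had more sequence data than any A180d library, so depth and age cannot be told apart, and read numbers per feature are unknown. One protein-coding identifier without a symbol took 42.7% of the protein-coding FPKM in A180d-3 and between 41.3 and 53.6% in the A2Y libraries, but was listed at 0 in A180d-1 and A180d-2.

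Of the 12913 protein-coding genes, 1390 (10.8%) were higher and 421 (3.26%) were lower at A2Y than at A180d (limma, Benjamini-Hochberg adjusted p of at most 0.05). In whole tissue, fewer cells of a type and less RNA per cell cannot be told apart. Among the genes that rose, the median change was 0.70 on the log2 scale, and 206 changed by more than 1. Among those that fell, the median was -0.71 and 58 changed by more than 1. The A180d and A2Y libraries did not overlap in 1789 of the 1811 genes called and in 39.4% of all genes tested. The excess of rises depended on the scale. In the deposited values 76.8% of the called genes were higher at A2Y and the median change of all genes was 0.07, whereas median ratio scaling, in which every library is divided by 1 factor taken from the protein-coding genes, left 50.1% higher, with 1102 genes (8.53%) higher and 1097 (8.50%) lower, and a median of -0.02. Of the 1390 and 421 genes, 1097 and 420 remained called in the same direction on that scale. The number of calls was 530 without A2Y-3, 854 without A180d-3, 885 without A180d-1 and 920 without A180d-2. Among the 8215 genes with a symbol, from which all lists below were drawn, 10.8% were higher and 3.72% lower. Of all 12913 genes, 57.7% had a positive change in the deposited values, called or not.

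**Figure D1:**
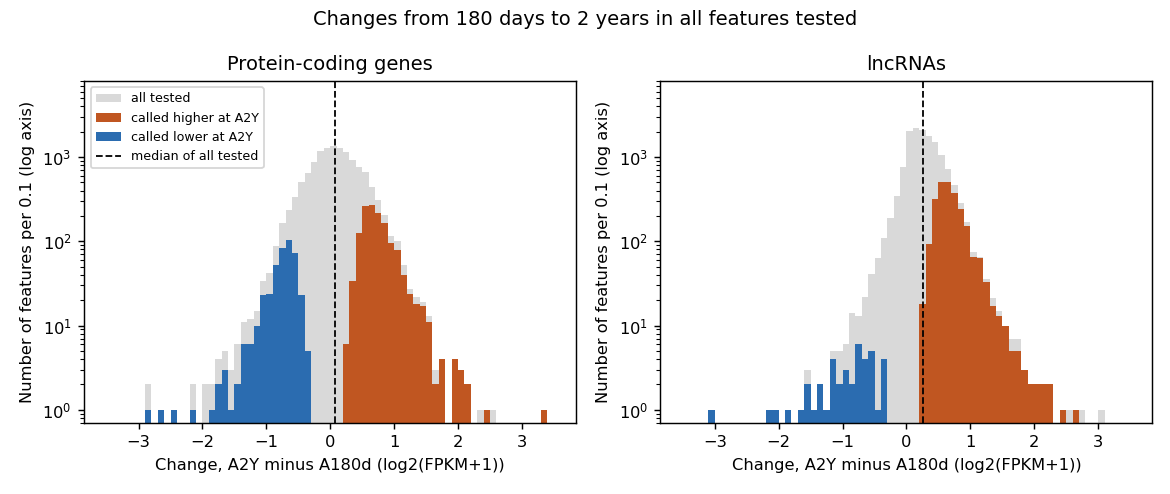
Number of features (log axis) by change from A180d to A2Y in log2(FPKM+1), for 12913 protein-coding genes and 14129 lncRNAs, with called rises in orange, called falls in blue and the median of all features as a dashed line. Protein-coding genes moved to both sides of a median of 0.07, while nearly all called lncRNAs lay to the right of a median of 0.26.

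The 12 largest rises included genes of RNA splicing and processing, mitochondrially encoded genes and genes of contractile proteins. Only called genes without overlap between the libraries of the 2 ages were eligible. Such absence of overlap was found in 39.4% of all genes tested. LUC7L3, a component of the U1 small nuclear ribonucleoprotein, had an FPKM of 8.56, 9.29 and 6.77 in the A180d libraries and of 36.4, 31.6 and 48.4 in the A2Y libraries. All A2Y values were more than 3 times the highest A180d value, and the log2 change was 2.10 ± 0.18 (SE, limma, adjusted p = 2.96e-05). TTC14 was at 7.45, 7.64 and 7.63 at A180d and at 30.0, 25.03 and 30.9 at A2Y, a log2 change of 1.78 ± 0.17 (SE, limma, adjusted p = 3.13e-05). CLK1, a kinase that phosphorylates splicing factors of the SR family, was at 23.5, 21.6 and 17.5 at A180d and at 76.2, 58.1 and 54.8 at A2Y. Its change was 1.54 ± 0.20 (SE, limma, adjusted p = 0.000394). PRPF39, which acts with U1 in the recognition of 5′ splice sites, rose by 1.48, from a mean FPKM of 4.18 to 13.5. CCNL1, a cyclin that partners with kinases of transcription and splicing, rose by 1.46, from 11.8 to 34.0. ZFC3H1, which guides nuclear polyadenylated RNA to the exosome, rose by 1.45, from 2.99 to 9.96, and AKAP9, a large scaffold of the centrosome and Golgi, rose by 1.48, from 2.51 to 8.82. Each of these genes remained called when any of the 6 libraries was left out.

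A wider list of splicing regulators, drawn up after these genes had been seen and therefore no independent evidence, had 30 measured members, of which 15 rose and 0 fell, with a median change of 0.58 against 0.07 over all genes. SRSF11, an SR protein, went from a mean FPKM of 17.6 to 43.8, PNN, a nuclear speckle protein, from 9.74 to 27.1, and ZRANB2 from 19.6 to 51.1. RBM25, RBM39, RBM5, SON, DDX46, RSRC2, CLK4 and TRA2A also rose, TRA2A with the weakest call, which was lost after median ratio scaling (adjusted p = 0.0599, limma) and without A180d-1, A180d-3 or A2Y-3 (highest adjusted p = 0.0894). The other 15 members did not pass. Among these the SR proteins SRSF1 and SRSF3 had changes of 0.11 and -0.36 and TRA2B one of 0.17. The summed FPKM of the 30 genes was between 646.1 and 658.7 at A180d and between 902.7 and 1061 at A2Y. The median change after median ratio scaling was 0.44, with 14 higher and 0 lower.

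Of 13 protein-coding transcripts of the mitochondrial genome 11 rose. This list was likewise added after the values were seen. All 13 had a positive change, and their median change was 1.14 (1.00 after median ratio scaling, with 10 called). ATP8, a subunit of ATP synthase, had an FPKM of 565.3, 635.3 and 911.4 at A180d and of 2164, 3054 and 2680 at A2Y. The log2 change was 1.92 ± 0.26 (SE, limma, adjusted p = 0.000468). ND3, a subunit of complex I, rose by 1.59, from 173.0, 186.3 and 268.7 to 527.6, 608.3 and 737.0, and ND2, another, rose by 1.53, from 9.45, 9.41 and 10.03 to 19.5, 32.2 and 41.6. COX1 and COX2, core subunits of complex IV, had mean FPKM of 1669 and 877.2 at A180d and of 3345 and 1823 at A2Y. ND4L and CYTB, at 0.25 and 0.39, did not pass. ND1, ND6, COX1, COX3 and ATP6 each lost their call without A2Y-3 and without 1 to 3 of the other libraries (highest adjusted p = 0.137, limma), and COX3 also after median ratio scaling (adjusted p = 0.0565). Mitochondrial sequences have near copies in the nuclear genome, so the assignment of reads to these genes is uncertain. Of 12 nuclear genes of oxidative phosphorylation 0 rose and 1 fell, against 10.8% and 3.72% of the genes with a symbol. In a list of this size such counts are near those shares. The median change was -0.24 (-0.38 after median ratio scaling). The 1 that fell was NDUFV1, a complex I subunit, at 20.4, 21.9 and 21.3 and then at 12.4, 13.02 and 11.9 (change -0.72 ± 0.17 SE, limma, adjusted p = 0.0113, and 0.0544 without A2Y-3).

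MYH11, ACTC1 and ACTG2, genes of contractile proteins, rose. MYH11, the myosin heavy chain of smooth muscle, had an FPKM of 32.2, 30.9 and 20.8 at A180d and of 66.1, 90.7 and 126.6 at A2Y. The change was 1.70 ± 0.29 (SE, limma, adjusted p = 0.00216). ACTC1, the alpha-actin of cardiac muscle, rose by 1.98 ± 0.39 (SE, limma, adjusted p = 0.00484), from 1.93, 3.26 and 1.24 to 7.91, 12.7 and 13.1. ACTG2, the enteric smooth muscle actin, rose by 1.12, from a mean of 48.9 to 104.5, although it lost its call without A2Y-3, A180d-2 or A180d-3 (highest adjusted p = 0.135, limma). All 8 measured smooth muscle markers had a positive change, with a median of 0.53 against 0.07 over all genes (0.39 after median ratio scaling, with 7 of 8 positive), but only MYH11 and ACTG2 passed. TAGLN and DES, for example, had changes of 0.27 and 0.49. The summed FPKM of the 8 markers ranged from 519.2 to 734.3 at A180d and from 761.2 to 1170 at A2Y, but without MYH11 they overlapped, at 498.4 to 702.1 and 680.2 to 1044. How much of the capsule and trabeculae each sample held was not tested. ACTB, the cytoplasmic beta-actin, went the other way. It stood at 1677, 1706 and 1565 at A180d and at 616.8, 688.2 and 579.9 at A2Y, a fall by 1.39 on the log2 scale (SE 0.28, limma, adjusted p = 0.00542). Actin genes are alike in coding sequence, so reads could be shared among them in ways that these values do not show.

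**Figure D2:**
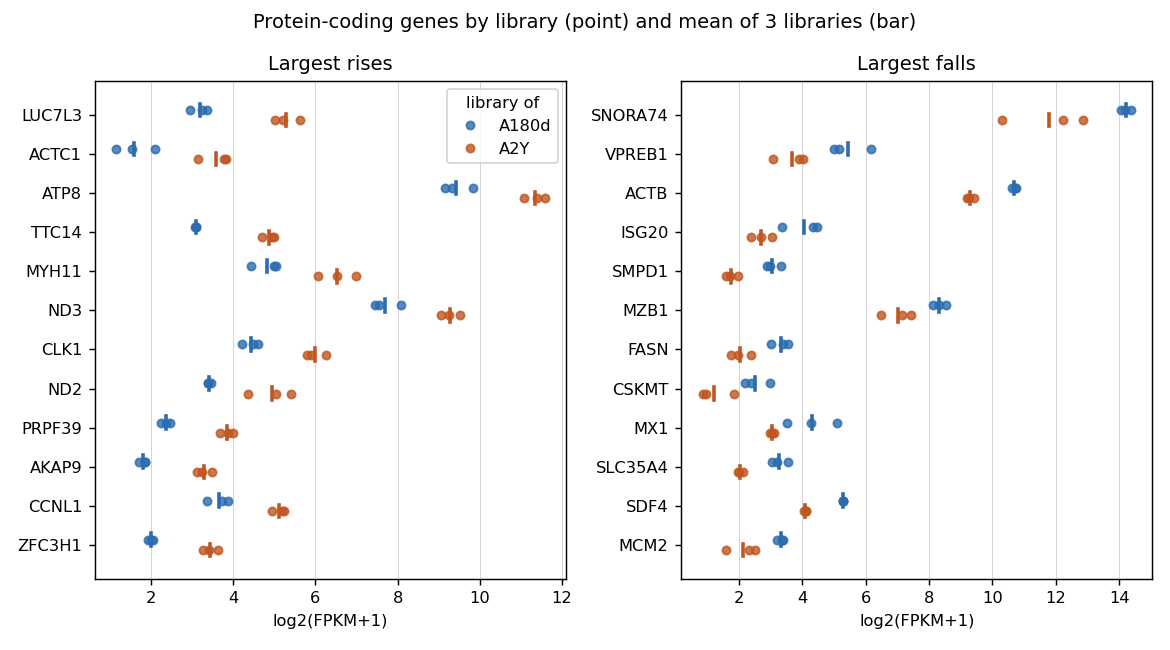
log2(FPKM+1) of the 12 protein-coding genes with the largest rises and the 12 with the largest falls, with 1 point per library (A180d blue, A2Y orange) and a bar at the mean of the 3 libraries of an age. In every gene shown the libraries of the 2 ages do not overlap, which was a condition of the choice. SNORA74 is spread widely at A2Y and MX1 at A180d, while SDF4 lies close together at both ages.

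Of the genes of the B lineage, VPREB1, MZB1 and BLK fell. VPREB1, part of the surrogate light chain of the pre-B cell receptor, had an FPKM of 70.0, 31.1 and 34.9 at A180d and of 15.1, 13.9 and 7.32 at A2Y. A180d-1 stood well above the other A180d libraries, and the change was -1.79 ± 0.34 (SE, limma, adjusted p = 0.00403). MZB1, a chaperone of the endoplasmic reticulum in marginal zone B cells and plasma cells, stood at 314.2, 275.7 and 371.0 and then at 172.2, 139.1 and 88.6. This was a change of -1.30 ± 0.33 (SE, limma, adjusted p = 0.0178), which was lost without A180d-1, A180d-3 or A2Y-3 (highest adjusted p = 0.107). BLK, a kinase of the B cell receptor pathway, went from 3.16, 3.31 and 3.22 to 1.95, 1.27 and 1.24 (change -0.78 ± 0.13 SE, limma, adjusted p = 0.00139). The remaining B cell markers did not pass, with a change of 0.29 in MS4A1, for example. Thus 0 of 7 rose and 1 fell, against 10.8% and 3.72% of the genes with a symbol. The list median was -0.19. In a list of 7 genes of B lymphopoiesis, added after the values were seen, VPREB1 alone fell and 0 rose, with a median of -0.22. Of the 4 plasma cell markers 0 rose and 1 fell, with a median of -0.42, and XBP1 and PRDM1, regulators of the plasma cell state, had changes of -0.28 and -0.22. The summed FPKM of these 4 markers lay between 427.9 and 607.0 at A180d and between 247.9 and 344.3 at A2Y, but without MZB1 they overlapped, at 152.3 to 236.0 and 139.5 to 172.1. The part of plasma cell number in these values was not tested.

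No T cell marker passed the test. The 13 measured had a median change of -0.30, from -1.08 in CD6 to 0.76 in IL7R, and after median ratio scaling CD6 and CD247 were lower. Of 9 markers of cytotoxic and NK cells, all had a negative change and 0 passed, with a median of -0.58. Among them were GNLY and CCL5, with changes of -1.06 and -0.87, and PRF1, which forms the cytotoxic pore, with -0.53. Of 11 macrophage markers 1 rose and 0 fell, near the 10.8% and 3.72% of the genes with a symbol. Their median was -0.04. SPIC, the transcription factor of red pulp macrophages, was at 128.3, 121.2 and 107.4 at A180d and at 256.8, 224.3 and 278.6 at A2Y. The ages did not overlap, and the change of 1.08 ± 0.25 (SE, limma) passed at an adjusted p of 0.0117, but at 0.0592 without A2Y-3. The scavenger receptor MARCO, in contrast, had a change of -1.25, which passed only after scaling (adjusted p = 0.0679, and 0.0435 scaled, limma). VCAM1 and C1QA, both abundant in the red pulp, had changes of 0.56 and -0.28. HBB, the beta chain of haemoglobin, ranged from 1999 to 5158 at A180d and from 165.6 to 2686 at A2Y. These ranges overlapped, and none of the 5 erythroid markers passed. Of 10 genes of iron and haem handling 0 passed, with a median of 0.31. FTL, the light chain of ferritin, had a change of 0.44, and CP, which encodes ceruloplasmin, was at 0.66, 1.26 and 0.77 and then at 1.57, 1.01 and 1.34, a change of 0.29 ± 0.44 (SE, limma, adjusted p = 0.709).

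Of the genes of DNA replication 2 of 9 fell, of those of cell division 2 of 17, and 0 rose in either list. Of all genes with a symbol 3.72% fell and 10.8% rose. MCM2, a subunit of the replicative helicase, was at 9.21, 8.13 and 9.52 at A180d and at 4.64, 3.98 and 1.98 at A2Y. Its change was -1.18 ± 0.26 (SE, limma, adjusted p = 0.00785), and the adjusted p was 0.0539 without A2Y-3, the lowest of the 3 libraries. All 9 measured genes of DNA replication had a negative change, with a median of -0.47, but only MCM2 and MCM5 passed, and MCM5 lost its call in each of the 6 fits with a library left out (highest adjusted p = 0.18, limma). Of 17 genes of cell division 15 had a negative change and 2, the mitotic kinase PLK1 and the anaphase activator CDC20, passed, with a median of -0.47 over the list. CDC20 too was called in none of these fits (highest adjusted p = 0.186), and PLK1 lost its call without A2Y-3 or any 1 A180d library (0.132). After median ratio scaling 4 replication genes and 3 division genes were lower and none was higher. CENPE and CENPF, kinetochore proteins, had changes of 0.38 and 0.15.

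LMNB1, which encodes lamin B1 of the nuclear envelope and is known to decline in senescent cells, fell by 0.88, from 18.4, 17.4 and 26.1 to 15.2, 10.6 and 7.17, and lost its call without A2Y-3 or A180d-3 (highest adjusted p = 0.128, limma). GLB1, the lysosomal beta-galactosidase used as a marker of senescent cells, had a change of 0.27 and did not pass.

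Of 18 genes of the type I interferon response 2 fell and 0 rose, against 3.72% and 10.8% of the genes with a symbol. The list median was -0.21. MX1, an antiviral GTPase, was at 33.1, 10.4 and 18.2 at A180d and at 7.50, 7.21 and 6.87 at A2Y. Its change of -1.26 ± 0.37 (SE, limma, adjusted p = 0.035) came with a wide spread at A180d and was kept only without A180d-2 among the 6 fits with a library left out (highest adjusted p = 0.157). USP18, a brake on interferon signalling, fell by 0.74 and lost its call without A180d-1, A180d-3, A2Y-2 or A2Y-3 (highest adjusted p = 0.159, limma). IFIT1 and IFIT2, induced by the same signal, had changes of 0.21 and 0.44. ISG20, an interferon-induced exonuclease, was at 19.3, 9.19 and 21.1 and then at 7.17, 5.44 and 4.24, a fall by 1.35 (SE 0.37, limma, adjusted p = 0.0257, and up to 0.118 without A180d-1, A180d-3, A2Y-2 or A2Y-3). Of the Toll-like receptors and their adaptors 10 of 12 members had a positive change, against 57.7% of all genes. In this list 2 rose and 0 fell, against 10.8% and 3.72% of the genes with a symbol. The median was 0.38 (0.28 after median ratio scaling, with 9 positive). TLR6 was at 4.28, 2.73 and 3.21 at A180d and at 7.04, 7.08 and 7.04 at A2Y, a change of 0.88 ± 0.16 (SE, limma, adjusted p = 0.00327). TLR4, the receptor for lipopolysaccharide, rose by 0.61, from a mean of 31.3 to 48.8, but kept its call only without A2Y-2 (highest adjusted p = 0.174, limma).

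The remaining genes with large falls had various roles. SMPD1, the acid sphingomyelinase of the lysosome, was at 8.90, 6.87 and 6.30 at A180d and at 1.98, 2.87 and 2.30 at A2Y. This was a change of -1.30 ± 0.19 (SE, limma, adjusted p = 0.000696). FASN, the fatty acid synthase, went from 10.8, 9.46 and 6.98 to 2.87, 4.19 and 2.31, and this fall by 1.29 was lost without A180d-1, A180d-2 or A2Y-3 (highest adjusted p = 0.0913, limma). In a list of 13 genes of lipid synthesis and lysosomal lipid breakdown, added after the values were seen, FASN and SMPD1 fell and 0 rose, with a median of -0.22. SDF4, a calcium-binding protein of the Golgi lumen, had libraries close together at both ages, at 38.1, 38.1 and 37.6 and then at 16.2, 16.4 and 15.6 (change -1.19 ± 0.16 SE, limma, adjusted p = 0.000468). SLC35A4, a member of the nucleotide sugar transporter family, fell by 1.24, from a mean of 8.71 to 3.06. CSKMT, a methyltransferase of citrate synthase, fell by 1.29, from 4.84 to 1.43, and lost its call without A180d-2, A2Y-2 or A2Y-3 (highest adjusted p = 0.0925, limma). The largest fall of a gene with a symbol belonged to SNORA74, a small nucleolar RNA that the table lists among the protein-coding genes. It was at 17136, 21257 and 18501 at A180d and at 7472, 1248 and 4841 at A2Y (change -2.41 ± 0.69 SE, limma, adjusted p = 0.03). The call was kept without A2Y-1 but lost without any of the other 5 libraries (highest adjusted p = 0.114, limma). SNORA53, SNORD17 and SCARNA12, RNAs of this kind listed with it by symbol, had changes of -1.25, -0.85 and -0.71 and did not pass. The share of such short RNAs that reaches a library depends on its preparation, and the part of this in the result was not tested.

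**Figure D3:**
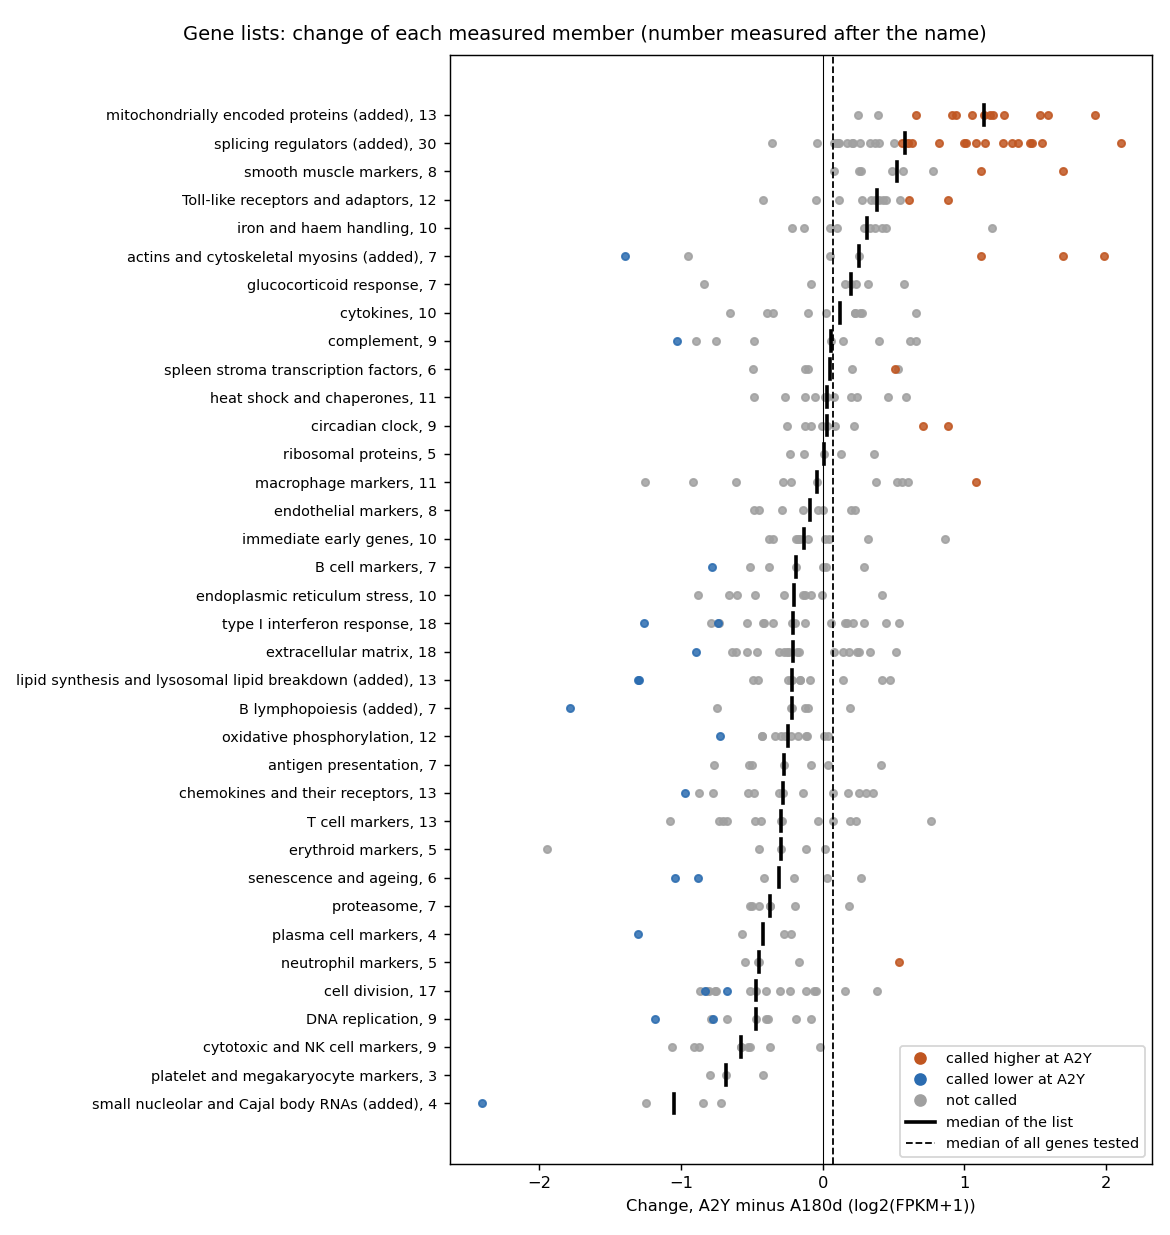
Change from A180d to A2Y in log2(FPKM+1) of each measured member of the gene lists with at least 3 measured members, called rises in orange, called falls in blue and other members in grey, with a black bar at the list's median and a dashed line at the median of all genes, 0.07. Mitochondrially encoded proteins have the highest median (1.14), small nucleolar and Cajal body RNAs the lowest (-1.05), and most lists have few or no called members.

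In 16 of the 32 lists with a measured member, those added later left aside, no gene passed in either direction. On the deposited scale these included the ribosomal proteins (median 0.0060), heat shock and chaperones (0.03), immediate early genes (-0.13), the proteasome (-0.38), antigen presentation (-0.27) and cytokines (0.12). Median ratio scaling turned the median of the ribosomal proteins, the chaperones and the cytokines negative, to -0.14, -0.10 and -0.0047. On that scale 4 of the 7 proteasome genes, PSMB1, PSMC5, PSMD4 and PSME1, were lower and 0 higher, with a median of -0.51. In the extracellular matrix list 1 of 18 genes fell, which was ELN, the elastin of arterial walls and trabeculae, from 5.32, 5.70 and 3.98 to 2.10, 2.21 and 2.32 (change -0.89 ± 0.25 SE, limma, adjusted p = 0.027, kept only without A180d-3 and up to 0.0949 otherwise), while COL1A2 and COL3A1 had changes of -0.53 and -0.47. The circadian list had 9 measured genes, 5 with a positive and 4 with a negative change, and a median of 0.03. In it CLOCK and NR1D2 rose, by 0.70 and 0.89, and 0 fell. Both lost their call without A180d-3 or A2Y-3, and CLOCK also without A180d-1 or A180d-2 (highest adjusted p = 0.186, limma). CXCR6, a chemokine receptor of tissue T cells, and C2, a complement protease, fell by 0.97 and 1.03, and MMP9 and NR2F2 rose by 0.54 and 0.51. Each of these 4 lost its call without A180d-3, without A2Y-3 and without at least 2 of the other libraries (highest adjusted p = 0.177, limma), and NR2F2 also after median ratio scaling (adjusted p = 0.133, limma). Of the genes without a symbol, ENSSSCG00000020662 had the largest rise by the rule for named genes, from 9.51, 23.3 and 36.7 to 151.1, 100.008 and 93.7. ENSSSCG00000023906 had the largest fall, from 11522, 9248 and 17518 to 4128, 3416 and 574.0, and lost its call without A180d-3 or A2Y-3 (highest adjusted p = 0.0869, limma).

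Among the lncRNAs the difference was nearly in 1 direction. Of 14129 tested, 2429 (17.2%) were higher and 42 (0.297%) lower at A2Y, and the median change was 0.26, with 87.1% of all lncRNAs at a positive value. After median ratio scaling by the protein-coding genes, 1132 (8.01%) were higher and 36 (0.255%) lower, with a median of 0.22. The 2 ages did not overlap for 48.0% of the lncRNAs tested. The count moved with single libraries, between 694 without A2Y-2 and 3470 without A2Y-1, and was 724 without A180d-1, 735 without A180d-3, 1313 without A2Y-3 and 1534 without A180d-2. In each of these fits at least 96.7% of the calls were higher at A2Y. The A2Y libraries were less alike than the A180d libraries, with correlations of log2(FPKM+1) of 0.865 to 0.880 among them against 0.920 to 0.927, and of 0.789 to 0.889 between the ages. For protein-coding genes the ranges were 0.972 to 0.975, 0.971 to 0.978 and 0.937 to 0.962. These correlations run across features, which are not independent replicates.

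TU5909 had one of the largest rises, from an FPKM of 0.22, 2.12 and 1.91 at A180d to 11.3, 13.3 and 9.70 at A2Y (change 2.48 ± 0.29 SE, limma, adjusted p = 0.00039). TU52089 went from 2.56, 3.46 and 2.58 to 12.1, 19.6 and 13.7 (change 2.04 ± 0.23 SE, limma, adjusted p = 0.000235) and TU75797 from 1.86, 1.52 and 1.13 to 11.2, 11.9 and 6.73. In these 3, as in TU8141 with means of 1.99 and 11.1, all 3 A2Y libraries were high. Other large rises were carried by 1 library. TU34828, with a change of 2.66 the largest among the called lncRNAs, was listed at 0, 0 and 0.68 at A180d and was at 2.42, 52.0 and 1.33 at A2Y, and it lost its call without A2Y-2 or any 1 A180d library (highest adjusted p = 0.252, limma) and after median ratio scaling (0.0685). TU34827 was highest in the same library, at 7.60, 33.1 and 2.24, and lost its call without it, without A180d-1 or without A180d-3 (highest adjusted p = 0.157, limma). TU73258, TU77577 and TU61974 were highest in A2Y-3, with 41.9, 16.9 and 9.74, against 8.08, 3.65 and 1.52 in A2Y-1. TU25398 lost its call without A180d-1 or A2Y-2 (highest adjusted p = 0.0644, limma), and TU77577 without A180d-1 or A2Y-3 (0.0558).

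Against this rise, a few lncRNAs fell sharply. TU27308 was at 21.3, 8.34 and 12.05 at A180d and at 0.96, 0.88 and 0.35 at A2Y, a 19.1-fold lower mean (change -3.03 ± 0.56 SE, limma, adjusted p = 0.00338). TU69026, among the most abundant lncRNAs of the spleen, went from 784.1, 851.0 and 1062 to 208.2, 114.9 and 355.2 (change -2.12 ± 0.26 SE, limma, adjusted p = 0.000503). TU382, TU65495 and TU69282 fell by 2.00, 1.89 and 1.65. All 5 remained called with any of the 6 libraries left out.

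The 5 lncRNAs with the highest mean over the 6 libraries did not share a direction. TU47080 rose, from 343.4, 484.3 and 421.6 to 744.9, 1364 and 683.2 (change 1.10 ± 0.20 SE, limma, adjusted p = 0.00325), while TU69026 fell. TU40061, TU80113 and TU81514 had changes of 0.75, -0.42 and 0.18 and did not pass, although TU80113 passed as lower after median ratio scaling (adjusted p = 0.0446, limma). TU78568 was at 49.0, 66.9 and 73.5 and then at 48.2, 61.1 and 47.5, which overlap (change -0.26 ± 0.31 SE, limma, adjusted p = 0.57). TU39066 was at 0.07, 0.08 and 0.07 at A180d and at 0.36, 0.51 and 0.30 at A2Y. Its libraries were apart, but on a scale that adds 1 to each FPKM the change was 0.36 ± 0.14 (SE, limma, adjusted p = 0.0686).

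**Figure D4:**
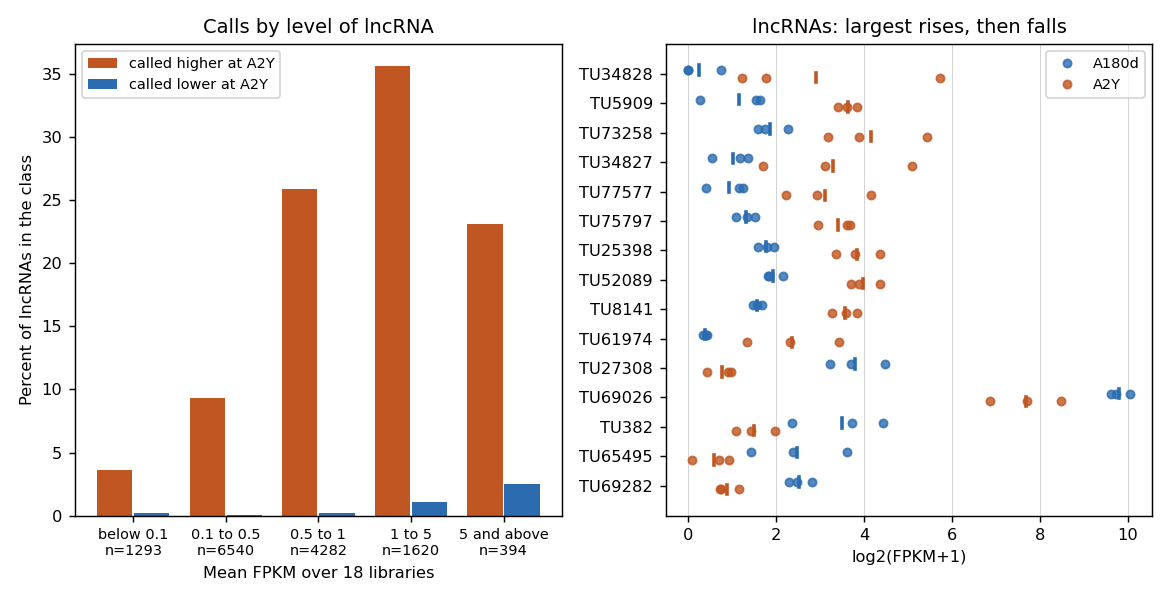
Left, percent of lncRNAs called higher (orange) and lower (blue) at A2Y in 5 classes of mean FPKM over the 18 libraries, with the number of lncRNAs under each class. Right, log2(FPKM+1) per library of the 10 lncRNAs with the largest rises and the 5 with the largest falls, with a bar at the mean. The share called higher is largest at an FPKM of 1 to 5, at 35.6%.

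The rise of lncRNAs was seen at all levels of expression. Among the 1293 lncRNAs with a mean FPKM below 0.1, 3.63% rose, and the share was 9.30% of the 6540 between 0.1 and 0.5, 25.9% of the 4282 between 0.5 and 1, 35.6% of the 1620 between 1 and 5 and 23.1% of the 394 at 5 or above. The median change of these classes was 0.08, 0.20, 0.41, 0.51 and 0.40, and after median ratio scaling it was 0.07, 0.18, 0.36, 0.43 and 0.27. In the highest class 389 of the 394 lncRNAs were detected in all 6 libraries, and 10 fell (2.54%), the largest share of falls among the classes.

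More lncRNAs were detected at A2Y. An FPKM above 0 was listed for 11195, 11471 and 10929 lncRNAs in the A180d libraries and for 12905, 13359 and 13110 in the A2Y libraries. The means were 11198 ± 271 and 13125 ± 227 (SD, n = 3 each), a difference of 1926 that lay beyond the spread within an age (two-sided exact permutation test, p = 0.1, the smallest that 3 libraries against 3 allow). Sequencing depth, also greater at A2Y, cannot be told apart from age here. With an FPKM above 1 required, the means were 1260 and 2947. Outside the comparison, an FPKM above 0 was listed for 12133 to 12461 lncRNAs at E55d, 12284 to 12646 at B0d and 12245 to 12525 at W30d. In WB, also 2 years old, it was listed for 11225 to 11305. No test was run on these counts. In all, 386 lncRNAs were found in all 3 A2Y and in none of the A180d libraries, and 13 the other way round. Leaving out 1 library drops a condition, so these counts could then only rise or stay. They ranged from 483 (without A2Y-2) to 727 (without A180d-2) and from 22 (without A2Y-3) to 35 (without A2Y-2). The first count was 665, 611 and 610 without A180d-1, A180d-3 and A2Y-1. With an FPKM of 0.1 as the limit of presence and absence the counts were 870 and 17. The 386 were mostly low, with a median of the mean FPKM of 0.197. With an FPKM above 0.5 required in all 3 libraries of an age, and 0 in those of the other, only 2 and 0 were left. Those 2 were TU71738, at 2.47, 2.05 and 2.38 at A2Y, and TU75257, at 0.89, 2.25 and 2.11. Of the 386, 338 were detected in at least 1 library of W30d and 4 in no library outside A2Y. lncRNAs held 1.40, 1.14 and 0.57% of all FPKM at A180d and 1.05, 2.05 and 1.83% at A2Y. These shares overlapped (difference of the means 0.606 percentage points, two-sided exact permutation test, p = 0.3). Without the dominant protein-coding identifier named above, they were 1.40, 1.14 and 1.00% against 2.24, 3.44 and 3.20%, which do not overlap (difference 1.78, exact permutation p = 0.1).

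**Figure D5:**
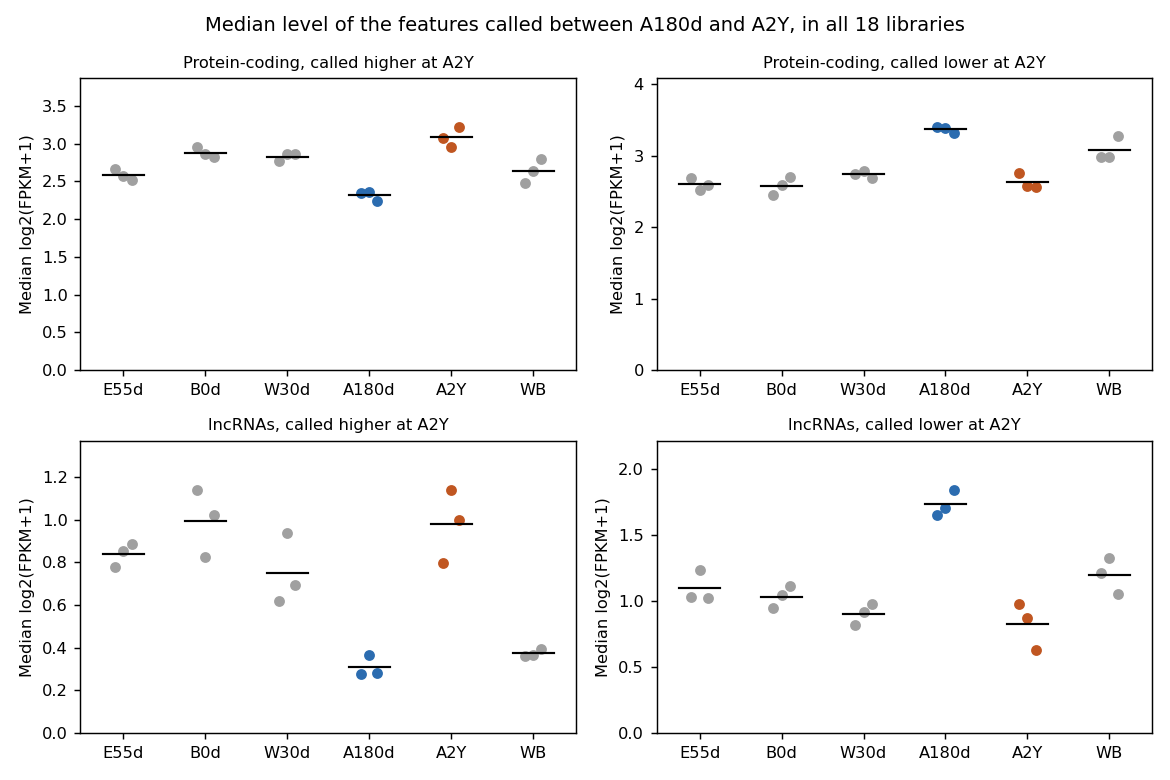
Median log2(FPKM+1) in each of the 18 libraries (points, with a bar at the group mean) over the 1390 and 421 protein-coding genes and the 2429 and 42 lncRNAs called higher or lower at A2Y than at A180d. A180d and A2Y are separated by the choice of the features; the other 4 groups are shown for their levels only.

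The features called between the ages were set beside the rest of the series as a description. Their median levels at W30d and at B0d lay nearer to A2Y than to A180d. The same held at E55d except over the protein-coding genes that rose. Over the 1390 protein-coding genes that rose, the median log2(FPKM+1) was 2.24 to 2.36 in the A180d libraries, 2.95 to 3.22 at A2Y, 2.77 to 2.86 at W30d and 2.48 to 2.80 in WB. Over the 421 that fell it was 3.31 to 3.40, 2.56 to 2.76, 2.69 to 2.78 and 2.98 to 3.28. At B0d the median was 2.82 to 2.96 over the genes that rose and 2.45 to 2.70 over those that fell. At E55d it was 2.52 to 2.66 and 2.52 to 2.69. Over the 2429 lncRNAs that rose it was 0.278 to 0.363 at A180d, 0.797 to 1.14 at A2Y and 0.618 to 0.935 at W30d. At B0d it was 0.827 to 1.14 and at E55d 0.778 to 0.885. In WB, from pigs of the same age as A2Y, it was 0.361 to 0.393. LUC7L3 had a similar order, with a mean FPKM of 35.6 in W30d, 38.8 in A2Y, 8.20 in A180d and 10.23 in WB. TTC14, at 21.3, 28.6, 7.57 and 8.81, did too. MYH11 and ACTC1 did not, at 101.9 and 14.8 in WB against 94.5 and 11.2 at A2Y and 28.0 and 2.14 at A180d. LUC7L3 and TTC14 were at 28.6 and 21.9 at B0d and at 14.5 and 9.03 at E55d. VPREB1 had its highest mean, 45.3, at A180d, against 8.42 at W30d and 5.84 in WB. No test was run on these values.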

How the data were processed

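Paired-end reads of strand-specific libraries from Trizol-extracted spleen RNA were mapped by the authors with TopHat to a pig genome with replaced sex chromosomes (the submitters' notes name Sscrofa10.2), lncRNAs were assembled with StringTie 1.3.3 and filtered with Cuffcompare of Cufflinks 2.2.1, and FPKM were computed with StringTie. The deposited values are log2 of FPKM plus 1, 1 column per library, with an empty cell, read here as 0, where a lncRNA was not detected. Whether strand was used in quantification is not given in the sources used here, so overlapping genes on opposite strands may share reads. The tests were planned for FPKM and run on the log2 values as deposited.

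Members and gene lists were chosen with earlier results of these data known, and 6 lists were added after the values were seen. Features that exceeded an FPKM of 0.1 in 3 or more of the 18 libraries were fitted with limma 3.58.1 in R 4.3.3 (6 groups, mean-variance trend, Benjamini-Hochberg adjustment, adjusted p of at most 0.05, contrast A2Y minus A180d). A change on the scale of log2(FPKM+1) understates that of low features. On simulated data this found 75% of protein-coding genes changed by 1 and 94% of those changed by 2 on the log2 scale. For lncRNAs it found 48 and 94%. Of the calls 4.52% were false among 12913 genes and 4.05% among 14129 lncRNAs. Changed features were drawn only from those with a mean log2(FPKM+1) above 1, and the simulated spread was independent between libraries and features. The shares found therefore do not cover lncRNAs at lower levels, nor the false shares effects common to a library. Symbols came from a table of gene identifiers (8215 of 12913 matched). Named were the 12 largest rises and 12 largest falls with a symbol among called genes whose libraries did not overlap and with a mean FPKM of at least 1 at the higher age, CP, by the same rule up to 2 rises and 2 falls without a symbol, 10 rises and 5 falls of lncRNAs, the 5 most abundant lncRNAs, TU78568 and TU39066, and list members as examples. Genes of the added lists, TU71738, TU75257 and runs of lncRNA names were chosen after their values were seen. Permutation tests used scipy 1.17.1. Relative depth was not settled from the steps among low lncRNA values, which for A2Y-2 lay at a log2 ratio of 0.371 to 0.891, depending on the A180d library it was set against. Alternatives were other filters, a pseudocount of 0.1, median ratio scaling, no trend, other libraries in the model, a replicate block and each library left out. Sequences and positions of the lncRNAs were not analysed here, and some genes are not reported here.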

Additional observations from a re-analysis of the deposited data

How the results depend on the processing

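Of 44 named features that were called, all 44 stayed called with an FPKM filter above 1, without a filter, without the trend and without WB, 43 after median ratio scaling, 41 with a pseudocount of 0.1, 35 with only A180d and A2Y in the model and 25 with a replicate block, and none changed direction. Leaving out 1 library gave 530 to 1559 called protein-coding genes and 694 to 3470 lncRNAs, from fits with fewer samples. With the same libraries left out, the lncRNAs found only at A2Y numbered 483 to 727 and those only at A180d 22 to 35. Such counts cannot fall when a library is left out. Same-numbered libraries share no animal, and their deviations from the group means correlated at 0.143, 0.0474 and -0.0129 in protein-coding genes and 0.107, 0.041 and -0.0019 in lncRNAs, so the numbers were not taken as pairs. The replicate block was fitted on the 6 A180d and A2Y libraries alone. It left 1165 protein-coding genes and 0 lncRNAs (limma, smallest adjusted p = 0.089, with 5365 at an unadjusted p under 0.05). The same libraries without the block gave 2198 and 1656, and the model of 18 libraries gave 1811 and 2471. Not every library correlated best with its own number. A pseudocount of 0.1 gave 4309 lncRNAs, a median lncRNA change of 0.913, and 0.469, 0.858, 1.17 and 0.923 in the 4 lower level classes, since it weighs low values more. Median ratio scaling gave 1168 lncRNAs, turned the median change of protein-coding genes to -0.0159 and lowered that of lncRNAs at an FPKM of 5 or above to 0.271. With an FPKM above 1 the median lncRNA change was 0.413. An FPKM of 0.1 as the limit of both presence and absence raised the difference in lncRNAs detected to 3257 and those only at A2Y to 870, and an FPKM above 0.5 at 1 age with 0 at the other left 2 only at A2Y and 0 only at A180d. Without the dominant protein-coding gene the difference in lncRNA share was 1.78 percentage points. Where no construction is named, the cause was not tested. Depth, unknown per value, limits what can be said of lncRNAs near 0.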

Other observations

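Symbols that open with the same letters were grouped after the values were seen, which gave 36 families of at least 20 measured genes. The centrosomal proteins (CEP) had the highest median change, 0.37, with 11 of 29 higher and 0 lower at A2Y. In the RNA-binding motif proteins (RBM) 6 of 21 were higher and 0 lower, in the ubiquitin-specific proteases (USP) 9 of 33 and 1, in the RING finger proteins (RNF) 10 of 41 and 0, in the coiled-coil domain proteins (CCDC) 13 of 50 and 2, and in the zinc finger proteins (ZNF) 35 of 147 and 4. Over all genes with a symbol 10.8% were higher and 3.72% lower. At the other end were the proteins of the large mitochondrial ribosomal subunit (MRPL), with a median of -0.21 and 0 of 29 higher and 1 lower. The collagens (COL) had 0 of 20 in either direction. The medians of CEP, RBM, USP, RNF, CCDC and ZNF stayed positive after median ratio scaling, at 0.27, 0.11, 0.14, 0.07, 0.05 and 0.09, and that of MRPL stayed negative, at -0.34. The counts higher and lower were then 8 and 0 for CEP, 5 and 2 for RBM, 7 and 3 for USP, 8 and 2 for RNF, 10 and 4 for CCDC, 32 and 6 for ZNF, 0 and 5 for MRPL and 0 and 1 for COL.

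Several lncRNAs with neighbouring names, TU45841 and TU45845 to TU45849, were listed at 0 in all A180d libraries and were highest in A2Y-3. TU45846 was at 0.317 in A2Y-1, 2.45 in A2Y-2 and 61.4 in A2Y-3, TU45848 at 0.0818, 0.521 and 16.1, and TU45847 at 0.217, 0.315 and 12.6. None of these passed the test (limma, lowest adjusted p = 0.0501). All were detected at E55d, B0d and W30d and in none of the WB libraries. Whether they lie side by side in the genome was not analysed here.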
